A study of Homo sapiens with 12 samples.

Results

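The genes that spread over the longest stretches of the genome were followed through DNA damage and through the depletion of a splicing factor. Long genes were defined by annotation alone, as the protein-coding genes whose row in the deposited Gencode v19 annotation (genome build hg19) spans 500 kb or more, with a single row kept per gene name. This gave 303 genes out of 19708 gene names. A549 cells, a human lung adenocarcinoma line of epithelial origin, had been infected with lentiviruses that carry a control short hairpin RNA (shControl) or a hairpin against RNF113A (shRNF113A), and all cells had been selected with puromycin at 1 µg/ml for 4 days. RNF113A encodes a subunit of the spliceosome that also carries the RING domain of a ubiquitin ligase. Each kind of cell was left untreated or was exposed to Cisplatin, given by the labels as 25 µg/ml for 20 h (the study's methods give its other treatments of these cells in µM, so the dose is uncertain), and each of the 4 groups was sequenced in 3 replicates. Polyadenylated RNA was selected before a stranded library was made. The study's methods call the replicates biological, but nothing says that they were separate cultures, so the p-values below measure only the spread between these samples.

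RNA polymerase II copies a gene from start to end at a limited speed, so the last exons of a very long gene are reached hours after the first. Cisplatin binds DNA, mainly at neighbouring guanines, and the resulting crosslinks can stop an elongating polymerase until they are removed by repair. Most of the length of such genes is intron, which the spliceosome must remove while and after the RNA is made, and many of them lie in common fragile sites, chromosomal regions that break when replication is slowed. A large share of long genes encodes adhesion molecules, receptors and signalling proteins best known from neurons, and part of these are also expressed in epithelial cell lines.

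The start regions of 5 long genes that carry results below are shown first, as 300 bases from 250 before to 50 after the annotated start on the gene's strand (RefSeq, build GRCh38.p14). Capitals mark GGGCGG, the core of the GC box, or its reverse complement CCGCCC, and 2 of the 3 matches of DOCK1 overlap. EXOC4 at chr7:133252828-133253127 (plus strand), PRKCA at chr17:66302363-66302662 (plus strand) and DOCK1 at chr10:126905178-126905477 (plus strand) had much less mRNA under Cisplatin. GPC6 at chr13:93226557-93226856 (plus strand) changed to different degrees in the 2 kinds of cell, and PLXNA4 at chr7:132576421-132576720 (minus strand) had more mRNA.
EXOC4: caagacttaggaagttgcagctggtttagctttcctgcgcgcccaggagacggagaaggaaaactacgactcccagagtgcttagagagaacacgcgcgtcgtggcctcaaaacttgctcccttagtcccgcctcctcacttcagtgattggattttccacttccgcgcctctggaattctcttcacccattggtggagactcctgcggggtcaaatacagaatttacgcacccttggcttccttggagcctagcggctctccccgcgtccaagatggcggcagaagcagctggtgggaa
PRKCA: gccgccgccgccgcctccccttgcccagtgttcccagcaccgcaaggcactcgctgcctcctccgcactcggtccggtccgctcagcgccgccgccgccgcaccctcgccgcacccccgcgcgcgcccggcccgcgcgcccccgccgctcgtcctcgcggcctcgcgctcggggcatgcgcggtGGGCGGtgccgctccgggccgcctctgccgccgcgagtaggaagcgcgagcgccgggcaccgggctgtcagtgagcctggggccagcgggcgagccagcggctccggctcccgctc
DOCK1: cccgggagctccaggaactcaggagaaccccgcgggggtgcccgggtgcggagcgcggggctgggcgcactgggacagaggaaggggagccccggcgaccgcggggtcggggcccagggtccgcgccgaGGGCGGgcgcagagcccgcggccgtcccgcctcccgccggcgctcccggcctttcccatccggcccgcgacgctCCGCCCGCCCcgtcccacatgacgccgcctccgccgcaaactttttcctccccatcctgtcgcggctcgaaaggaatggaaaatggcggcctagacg
GPC6: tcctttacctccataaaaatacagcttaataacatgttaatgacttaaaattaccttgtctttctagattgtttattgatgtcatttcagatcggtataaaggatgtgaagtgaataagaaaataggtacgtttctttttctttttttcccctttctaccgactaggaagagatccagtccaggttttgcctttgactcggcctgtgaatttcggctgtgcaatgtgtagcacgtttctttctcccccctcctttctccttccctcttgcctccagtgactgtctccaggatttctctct
PLXNA4: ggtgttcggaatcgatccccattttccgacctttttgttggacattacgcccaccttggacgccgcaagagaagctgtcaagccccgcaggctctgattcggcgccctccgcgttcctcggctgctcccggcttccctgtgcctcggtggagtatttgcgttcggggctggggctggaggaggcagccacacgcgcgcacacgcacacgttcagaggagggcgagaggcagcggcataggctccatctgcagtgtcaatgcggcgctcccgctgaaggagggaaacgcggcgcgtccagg
Of these windows PRKCA held 1 match and DOCK1 held 3, and none was found in EXOC4, GPC6 or PLXNA4. Searched on both strands, GGGCGG was present in 41.29% of the 557 start regions of 247 long genes that could be matched and in 44.95% of all 35116 start regions of the table. CCAAT was found in 31.42% against 34.61% and TATAAA in 11.85% against 11.53%. For the 118 matched long genes called lower under Cisplatin the shares were 42.12%, 28.94% and 10.62%. By these letters the long genes' start regions differed from the whole table by only a few percentage points.

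The long genes spanned a median of 707193 nt, from 500055 nt for AFF2 to 2304638 nt for CNTNAP2 at chr7:145813453-148118090, and 60 of them reached 1 Mb. They had a median of 6861 exonic nt in 21 separate exon blocks, against 3051 nt and 8 blocks in all other genes. Intron made up a median of 99.1% of the span against 87.9%. Another protein-coding gene overlapped 71 of them, on the same strand for 18, so that intronic reads of these can belong to the other gene. Of the 303, 300 were found in the gene counts, 6 of them under a newer symbol, whereas TM4SF2, RP11-127H5.1 and OFCC1 had no row there. Of these 300, 16 had no count at all, and 116 did not pass the filter on low counts. The tests below therefore cover 184 long genes for mRNA and 149 for intronic reads, and say nothing of the others.

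The libraries held 33859097 to 56071514 read pairs, of which 26220526 to 45721152 were assigned to genes. RNF113A itself had 20.3, 19.5 and 19.8 CPM (read pairs scaled to library depth with the TMM factors of edgeR) in untreated shControl cells and 15.3, 15.8 and 16.8 CPM in untreated shRNF113A cells. Under Cisplatin it had 31.5, 28.9 and 27.7 CPM against 25.8, 24.3 and 29.9 CPM, where the groups overlapped. The fitted difference with depletion was −0.23 ± 0.07 on the log2 scale (SE, adjusted p = 0.0185), which is under the 2-fold limit used for calls. The epithelial keratin KRT8 was abundant in all libraries, the leukocyte markers PTPRC and CD3E were at or near 0, fibroblast and neuronal markers were present at up to 35.0 and 51.6 CPM in sum, and CDKN2A, which is deleted in A549 cells, was listed at 0 in all 12 libraries. In bulk RNA fewer cells of a type and less RNA per cell cannot be told apart.

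The 2 shControl libraries numbered 2 stood apart from the others of their groups in the long genes. In untreated shControl cells 20 of the 184 tested long genes had at least 2 times the CPM of both other replicates in replicate 2, at 1 CPM or more, and 8 had less than both by the same factor. In Cisplatin-treated shControl cells these counts were 6 and 7 for replicate 2. No other library exceeded both others of its group in this way for any long gene, and at most 1 long gene was lower in any of them. UNC5D, a netrin receptor, shows the pattern with 3.56, 21.7 and 4.24 CPM in the untreated shControl replicates. Markers outside the long genes also stood apart in this library, in both directions. EPCAM (7.02, 18.4 and 5.57 CPM), the collagen COL1A1 (5.86, 34.9 and 7.08 CPM) and the neuronal SNAP25 (10.2, 28.8 and 11.1 CPM) were higher there, whereas the keratins KRT8 (6602, 3565 and 6349 CPM) and KRT18 (6164, 3393 and 5675 CPM) were lower. Without both libraries numbered 2 the median change of the long genes was −2.75 for Cisplatin and −0.25 for depletion, with 147 lower and 5 higher for Cisplatin, and the named results that move by over 1.5 times without them are given both ways.

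Taken as a class, the long genes lost most of their share of the mRNA under Cisplatin. They received 0.421% ± 0.0325 (SD, n = 3) of the assigned read pairs in untreated shControl cells and 0.146% ± 0.00731 (SD, n = 3) under Cisplatin. In shRNF113A cells the share was 0.390% ± 0.0285 (SD, n = 3) in untreated cells and 0.108% ± 0.00907 (SD, n = 3) under Cisplatin. The 3 libraries of each Cisplatin group lay below all untreated libraries. Intronic reads did not fall in proportion: the long genes held 17.0 ± 1.04 intronic pairs per 100 exonic pairs in untreated shControl cells, 37.8 ± 2.27 in Cisplatin-treated shControl cells, 19.9 ± 0.590 in untreated shRNF113A cells and 73.5 ± 6.92 in Cisplatin-treated shRNF113A cells (SD, n = 3 each). All other genes together had 4.80, 6.06, 6.51 and 11.2 in the same order.

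**Figure D1:**
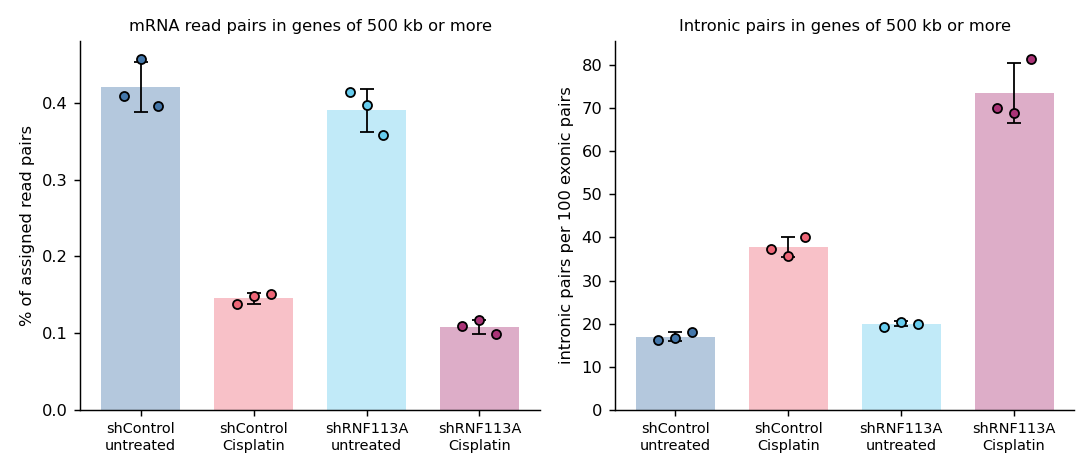
Left, percentage of assigned read pairs that fell in genes of 500 kb or more, and right, intronic read pairs per 100 exonic read pairs in the same genes; points are the 3 libraries of each group, bars their mean and lines the SD. The share of mRNA was lower in both Cisplatin groups, and the intronic reads per 100 exonic reads were highest in the Cisplatin-treated shRNF113A cells at 73.5.

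Cisplatin lowered the mRNA of most long genes that could be tested. Of 184, 145 were called lower (78.8%) and 7 higher (3.80%), at an adjusted p under 0.05 and a fold of at least 2, where the same calls were made for 11.2% and 10.3% of all 15352 genes tested. The median long gene was at −2.76 on the log2 scale, a 6.78-fold lower level, with quartiles at −3.89 and −1.38, and the median of all genes was 0.03. Without a filter on low counts the median long gene was at −2.19 over 284 long genes, with 167 lower and 7 higher. With DESeq2, also unfiltered, it was at −2.07 over the same 284 long genes, with 162 lower and 6 higher. The same calls were made for 7.5% and 6.5% of all 26334 genes listed in the counts with DESeq2, those without any count included. The 11.2% and 10.3% above belong to the filtered fit alone and are no background for either unfiltered fit. Within shControl cells 142 were called lower and 8 higher (background 10.6% and 9.16%), and within shRNF113A cells 139 and 5 (background 11.5% and 11.6%). Every Cisplatin library lay below every untreated library, in both kinds of cell, for 142 long genes, a pattern found in 22.3% of all genes, and the opposite held for 7, against 24.8% of all genes. In shRNF113A cells 8 long genes, among them NRXN3, SOX6 and MAPK10, were at 0 in the 3 Cisplatin libraries, and with these put at a floor of 3 counts over the group the median within these cells was −2.72 in place of −2.78. The CPM and fold changes are relative to the other genes of the same library through the TMM factors, since no spike-in was used. Scaled by library size alone, the median long gene was at −2.67 and the median of all genes at 0.125.

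The change grew with gene span across the genome. The median log2 change under Cisplatin was 0.22 for genes under 10 kb, 0.15 for 10 to 50 kb, −0.07 for 50 to 100 kb and −0.61 for 100 to 500 kb, and the share called lower rose from 2.85% through 3.76% and 8.82% to 35.5% before it reached 78.8% in the long genes. Among the long genes themselves span no longer ordered the change (Spearman's rho −0.02 over 184 genes, which share their libraries). In the 62 shortest of them 48 were called lower with a median of −2.60, in the middle 61 there were 54 with −3.07, and in the 61 longest there were 43 with −2.72. By mean level over all libraries, 32 of 43 tested long genes under 1 CPM, 63 of 72 from 1 to 10 CPM and 50 of 69 above 10 CPM were called lower. For the other genes of the same levels the shares were 18.4%, 17.0% and 6.39%. This mean includes the Cisplatin values, and a gene could pass the filter through its untreated libraries alone. With at least 10 counts in every library 112 long genes were left, with a median of −2.20, 82 lower and 2 higher, against 8.66% and 7.45% of all genes.

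**Figure D2:**
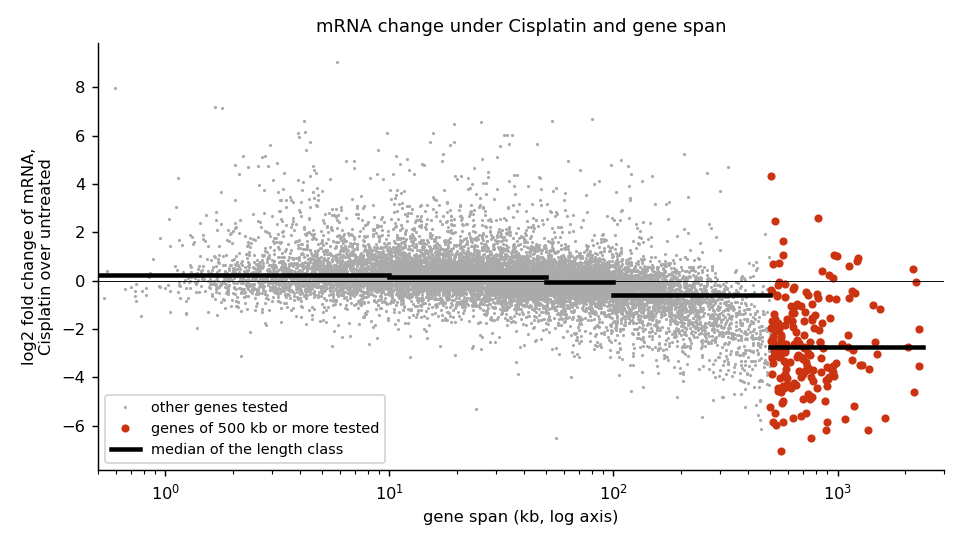
Log2 fold change of mRNA, Cisplatin over untreated (vertical axis), against gene span in kb (horizontal log axis), for the long genes tested (red) and other tested genes (grey), with black bars at the median of each length class. The medians run from 0.22 under 10 kb to −2.76 at 500 kb or more, and 7 long genes were called higher.

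The share of long genes called lower differed with a property of the annotation that the definition did not use, the median span of their individual transcripts. This was looked at after the values were known. A gene row reaches from the first to the last exon of any transcript, so a gene can span 500 kb through a single extended isoform or through shorter transcripts that lie far apart, and 34 of the long genes had no transcript of 500 kb or more. Where the median transcript of a gene was under 100 kb, 9 of 20 tested long genes were called lower (45.0%), with a median change of −0.90. Where it was 100 to under 500 kb, 65 of 86 were called lower (75.6%, median −2.52), and where it was 500 kb or more, 71 of 78 (91.0%, median −3.47). Of the 39 tested genes in which every transcript reached 500 kb, 37 were called lower (94.9%, median −3.84). The longest transcript separated the genes less, as 16 of 22 tested genes with no transcript of 500 kb (72.7%, median −1.96) and 129 of 162 with at least 1 (79.6%, median −2.91) were called lower. The 3 classes differed in level too, with medians of 16.1, 7.22 and 2.52 CPM, and the part of level in this order was not tested.

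Several of the long genes with the most mRNA per exonic kb belonged to the first of these classes and were not called. EIF2B5, which encodes a subunit of the exchange factor that recycles the translation initiation factor eIF2, had a median transcript of 10047 nt in a row of 549721 nt. Its mRNA was at 62.6, 56.0 and 59.4 CPM in untreated and 57.3, 63.8 and 58.3 CPM in Cisplatin-treated shControl cells, a change of −0.03 ± 0.05 over both kinds of cell. AVL9, whose longest transcript measured 93233 nt, stayed at 120, 114 and 101 CPM against 101, 120 and 97.4 CPM. UPK3B, which encodes a uroplakin and whose longest transcript was 5029 nt, had 34.7, 20.0 and 43.0 CPM against 33.7, 17.5 and 33.1 CPM. For these 3 genes the groups overlapped in shControl cells, and none was called. They ranked 4, 8 and 3 by CPM per exonic kb among the 300 counted long genes.

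The long genes with the highest CPM otherwise fell steeply. PRKCA, a kinase activated by calcium and diacylglycerol, spans chr17:64298754-64806861 and had 196, 193 and 173 CPM in untreated shControl cells. Under Cisplatin it had 14.8, 11.4 and 16.4 CPM, and in shRNF113A cells it went from 152, 147 and 118 to 8.08, 9.21 and 8.68 CPM. The groups were far apart, and the change was −3.86 ± 0.11 (SE, adjusted p = 3.5e-11). THSD4, an extracellular protein that promotes fibrillin assembly, had 268, 289 and 230 CPM in untreated and 30.9, 39.8 and 32.5 CPM in Cisplatin-treated shControl cells (−3.16 ± 0.11). PDE4D, a phosphodiesterase that breaks down cyclic AMP, fell less, from 305, 377 and 284 to 116, 195 and 126 CPM (−1.18 ± 0.14). PARD3, a polarity scaffold, had 176, 142 and 174 CPM against 64.5, 62.5 and 74.3 CPM (−1.67 ± 0.15).

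Adhesion and guidance molecules formed the largest role list, with 65 long genes of which 35 passed the filter. Cisplatin lowered 31 of them and raised 2, with a median of −3.40. Beside this and the lists below stand the 78.8% lower and 3.80% higher among all tested long genes and the 11.2% and 10.3% among all genes, and no list was tested against the other long genes. PTPRG, a receptor phosphatase, fell from 40.9, 52.4 and 38.7 to 1.47, 1.18 and 1.17 CPM in shControl cells, and MAGI1, a scaffold of cell junctions, from 13.2, 10.1 and 11.7 to 0.552, 0.698 and 0.575 CPM. The Slit receptor ROBO1 had 68.6, 133 and 64.2 CPM before and 12.7, 18.9 and 16.3 CPM after, the highest value of each group being replicate 2. The 3 genes lay apart between untreated and treated cells in both kinds of cell. CDH4, a cadherin, was among the largest falls of all long genes, from 13.2, 6.73 and 15.6 to 0.0789, 0.0481 and 0.362 CPM. NRXN3, a neurexin, had 7.21, 2.88 and 6.71 against 0.184, 0.0481 and 0.128 CPM, and was listed at 0 in the 3 Cisplatin-treated shRNF113A libraries. NLGN1, its neuroligin partner, had 1.93, 5.68 and 1.83 against 0.0263, 0 and 0.0638 CPM, the highest again in replicate 2.

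Among genes that build or modify the cell surface and matrix, 17 were long and 8 were tested, of which 6 were lower and none higher (median −3.59). LARGE, a glycosyltransferase that extends the sugar chain of dystroglycan, showed the largest fall among long genes at 1 CPM or more. It had 40.1, 39.5 and 33.8 CPM in untreated shControl cells and 0.395, 0.192 and 0.468 CPM under Cisplatin, and in shRNF113A cells 14.0, 14.3 and 11.5 against 0.0969, 0.155 and 0.374 CPM. The fitted change was −6.49 ± 0.22, a 90.1-fold lower level (adjusted p = 5.6e-11). The counts under Cisplatin are few, so the size of this fold is less certain than its direction. SLIT3, a secreted guidance ligand, had 19.8, 12.5 and 23.6 against 0.658, 0.216 and 0.553 CPM in shControl cells.

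Of 34 long signalling genes 26 were tested, with 21 lower and 1 higher (median −2.48), close to the 78.8% lower of all tested long genes. EXOC4, a subunit of the exocyst that tethers secretory vesicles, had 91.6, 77.2 and 79.5 CPM in untreated shControl cells and 3.81, 2.09 and 4.26 CPM under Cisplatin. In shRNF113A cells it went from 79.7, 74.6 and 83.8 to 4.01, 2.87 and 5.24 CPM, and the change was −4.46 ± 0.17 (adjusted p = 1.5e-10). DOCK1, an activator of the GTPase Rac, had 133, 122 and 114 CPM against 23.2, 23.4 and 24.6 CPM in shControl cells (−2.44 ± 0.08). The polarity gene PARD3B went from 13.0, 8.53 and 10.8 to 0.105, 0.120 and 0.192 CPM. In each of these 3 genes the groups did not overlap in either kind of cell. Channels and receptors were mostly too low to test: 10 of 24 passed the filter, with 7 lower and 1 higher (median −2.16), and the glutamate receptor gene GRID1 went from 7.85, 7.97 and 7.24 to 0.316, 0.144 and 0.298 CPM.

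Transcription and RNA regulators were the list with the most genes that were not called. Of 26 long genes 18 were tested, 11 were lower and none was higher (median −2.34), which left 7 without a call. SMYD3, a lysine methyltransferase, fell from 21.1, 20.2 and 21.8 to 1.24, 1.08 and 1.40 CPM in shControl cells. RBFOX3, a splicing regulator used as a neuronal marker, went from 18.2, 7.72 and 19.5 to 0.342, 0.241 and 0.362 CPM. In contrast RUNX1, whose median transcript of 128618 nt is far shorter than its row of 1216868 nt, had 15.3 ± 4.71 CPM in untreated and 23.5 ± 6.07 CPM in Cisplatin-treated shControl cells (SD, n = 3), with overlapping groups and a change of 0.82 ± 0.16, under 2-fold. As a list outside the long genes, 23 targets of the damage-responsive factor p53 were all called higher, with a median of 2.75. The lists together hold 173 of the 303 long genes, and NCKAP5 and ENOX1, with falls among the 8 largest, are in none of them.

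Of the 21 long genes known from common fragile sites, 16 were tested and 12 were lower, none higher, with a median of −3.32, a share close to the 78.8% lower of all tested long genes. WWOX, an oxidoreductase gene at FRA16D, had 23.2, 23.2 and 22.7 CPM in untreated and 3.29, 3.97 and 3.43 CPM in Cisplatin-treated shControl cells (−2.75 ± 0.12). FHIT, which encodes a diadenosine triphosphate hydrolase at FRA3B, had 1.96, 1.91 and 1.27 against 0.237, 0.216 and 0.106 CPM (−3.06 ± 0.23). The dihydropyrimidine dehydrogenase gene DPYD went from 6.30, 10.6 and 6.36 to 0.552, 0.385 and 0.553 CPM. All 3 had separate groups in both kinds of cell. Also lower were ESRRG, PTPRG, LSAMP, EXOC4, NBEA, PARK2, IMMP2L, MACROD2 and CNTNAP2, between −5.69 and −1.98. The 4 without a call were RORA, AUTS2, DMD and DLG2, and they include 2 of the longest genes of the genome. Dystrophin (DMD), with 2241765 nt at chrX:31115794-33357558, had 1.58, 0.637 and 1.06 against 1.74, 1.06 and 1.45 CPM in shControl cells, and its fitted change of −0.05 ± 0.29 turned positive without library scaling factors. DLG2, a synaptic scaffold of 2172912 nt, had 0.497, 0.713 and 0.530 against 0.658, 0.625 and 0.617 CPM. At under 2 CPM these are measured on few reads.

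The 7 long genes called higher were PLXNA4, MAST4, ASTN2, ERC2, GRM8, FAM19A2 and CCDC178, and the first 3 had a mean of at least 1 CPM. PLXNA4, a plexin that transmits semaphorin signals, rose from 0.249, 0.306 and 0.212 to 2.21, 1.85 and 2.28 CPM in shControl cells and from 0.503, 0.604 and 1.08 to 2.65, 1.85 and 4.34 CPM in shRNF113A cells (2.46 ± 0.28, adjusted p = 4.2e-06). MAST4, a kinase, rose from 12.6, 12.1 and 11.0 to 29.7, 23.3 and 29.7 CPM in shControl cells (1.08 ± 0.11). Both had separate groups in either kind of cell, although within shRNF113A cells alone the rise of MAST4 was under 2-fold. ASTN2, a membrane protein of neuronal migration, stood at 1.01 ± 0.18, right at the 2-fold limit, and fell short of it with DESeq2 and when any of the 6 shControl libraries was left out. CCDC178 was listed at 0 in the 3 untreated shControl libraries and at 0.132, 0.144 and 0.277 CPM after Cisplatin. No transcript of PLXNA4 reached 500 kb, and of MAST4's 16 transcripts 1 did. Among tested long genes, 1 of 22 with no transcript of 500 kb was called higher, and 6 of 162 with at least 1. Where the median transcript was under 100 kb, 0 of 20 were called higher.

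**Figure D3:**
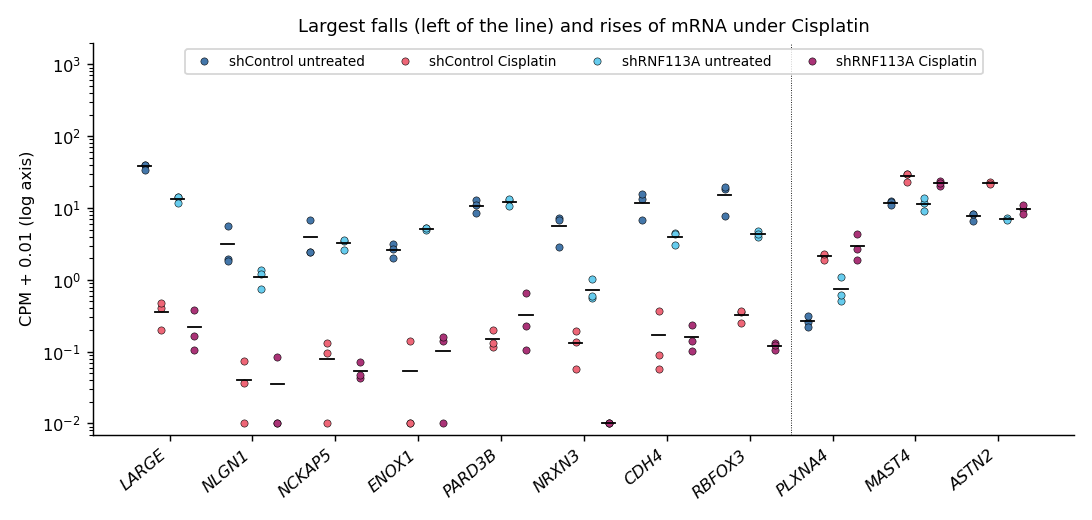
CPM plus 0.01 on a log axis, so that a value of 0 sits at 0.01, for the 8 long genes with the largest falls and the 3 with the largest rises under Cisplatin at 1 CPM or more; points are libraries, short lines group means and colours the 4 groups. The Cisplatin points lie below 1 CPM in the 8 genes left of the dotted line and above the untreated points in the 3 on the right.

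The values on either side of the limit are given as a description. The 3 tested genes just above 500 kb were AKAP6 (502089 nt), DNAH14 (503033 nt) and CCDC178 (503700 nt), with log2 changes of −5.22, −0.39 and 4.35. The 3 just below were DIAPH3, CACNA2D1 and MBD5, with −2.18, −3.55 and −2.38.

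Depletion changed fewer long genes and in both directions. Of 184, 42 were called lower and 14 higher, where the background was 5.52% and 5.47% of all genes, and the median was −0.34 against −0.00. In untreated cells 37 were lower and 13 higher (background 4.96% and 3.7%), and in Cisplatin-treated cells 35 and 11 (background 5.42% and 6.9%). The groups did not overlap in either treatment for 47 long genes lower with depletion, against 14.7% of all genes, and for 13 higher, against 13.8%. The count of higher genes depends on the shControl libraries numbered 2: without both of them 39 were lower and 22 higher. The depletion and Cisplatin effects were estimated from the same 12 libraries.

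Large falls with depletion were found in genes of several roles. KIRREL3, an adhesion molecule, had 7.07, 7.90 and 11.8 CPM in untreated shControl cells and 0.635, 0.420 and 0.307 CPM in untreated shRNF113A cells. PDE1C, a calcium-regulated phosphodiesterase, had 17.7, 13.2 and 17.4 against 2.75, 2.42 and 3.87 CPM, and FAT3, an atypical cadherin, 7.02, 6.39 and 6.23 against 1.91, 1.05 and 0.953 CPM. The groups of these 3 genes were separate in untreated and in Cisplatin-treated cells, with changes of −3.74 ± 0.41, −2.81 ± 0.21 and −2.33 ± 0.23. NAV2, FRMD4A, ELMO1 and NRXN3 were also among the 8 largest falls, between −1.83 and −3.05. FRMD4A, a cytohesin-binding scaffold, fell with depletion from 33.7, 40.1 and 53.3 to 11.5, 11.3 and 7.75 CPM but was not called under Cisplatin (−0.72 ± 0.14). ATRNL1 is a less certain case, as its untreated shControl values were 4.95, 25.5 and 5.06 CPM against 1.75, 1.10 and 1.29 CPM with depletion, and its change of −3.09 was −1.96 without both shControl libraries numbered 2.

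With depletion 7 of the 35 tested adhesion genes were higher and 10 lower, with a median of 0.01. LPHN3, the adhesion receptor now named ADGRL3, rose from 0.663, 1.20 and 0.583 to 8.63, 6.25 and 6.55 CPM in untreated cells (3.11 ± 0.32). PTPRD, the second longest gene tested with 2298478 nt, rose from 5.97, 5.55 and 4.61 to 15.9, 16.0 and 15.8 CPM, and the membrane-remodelling dynamin DNM3 from 4.01, 5.22 and 3.16 to 14.6, 13.5 and 11.9 CPM. Each of these 3 was lower under Cisplatin in both kinds of cell. UNC5D had 90.6, 79.8 and 76.0 CPM in untreated shRNF113A cells, above all shControl values including the 21.7 CPM of replicate 2, and the glutamate receptor GRIK2 had 15.1, 13.9 and 17.5 against 1.41, 6.67 and 1.35 CPM. Their changes were 2.66 and 1.98, and without both shControl libraries numbered 2 they were 4.37 and 3.25. The histone deacetylase HDAC9 was the last of the 6 largest rises (1.45 ± 0.30). In the other lists depletion gave 2 higher and 3 lower of 10 channels and receptors, 0 and 2 of 26 signalling genes, 1 and 5 of 18 transcription and RNA regulators, 1 and 2 of 8 matrix genes, 1 and 3 of 16 fragile site genes and none of the 23 p53 targets. For so few genes these counts can be read only against the 5.47% higher and 5.52% lower among all genes and the 14 and 42 of 184 among the long genes.

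Markers of epithelial and other kinds of cell moved with both factors. Of 5 epithelial markers 3 were lower under Cisplatin and 2, EPCAM (3.16) and KRT19, higher with depletion. EPCAM had 85.5, 93.7 and 97.6 CPM in untreated shRNF113A cells, against the 7.02, 18.4 and 5.57 CPM given above for untreated shControl cells. The epithelial markers summed to 7174 to 12926 CPM in untreated and 3400 to 5165 CPM in Cisplatin-treated shControl cells, and to 12847 to 14114 and 5306 to 5730 CPM in shRNF113A cells. Of 3 fibroblast markers COL3A1 was higher with depletion at a mean under 1 CPM (2.52), COL1A1 lower (−1.16, but −0.29 and not called without both shControl libraries numbered 2) and DCN near 0, with sums of 5.91 to 35.0, 6.58 to 14.2, 3.75 to 6.14 and 6.34 to 6.92 CPM in untreated and treated shControl and untreated and treated shRNF113A cells. Of 3 neuronal markers SNAP25 (−1.68) and RBFOX3 (−1.74), itself a long gene, were lower with depletion, and without those libraries SNAP25 was at −0.63 and not called and RBFOX3 at −2.06. The sums in the same order were 37.8 to 51.6, 8.42 to 27.4, 19.7 to 22.5 and 6.62 to 7.15 CPM. The endothelial CDH5 was higher with depletion (2.04), with PECAM1 and CDH5 together under 1 CPM in every library, and the leukocyte pair PTPRC and CD3E reached at most 0.127 CPM. The part of these shifts in the results for long genes was not tested.

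For 5 long genes the Cisplatin effect differed between the 2 kinds of cell by the interaction term, 4 in the lower and 1 in the higher direction, where the background was 0.508% and 0.769% of all genes. SORCS2, a sorting receptor for neurotrophin precursors, rose in shControl cells from 0.553, 0.433 and 0.849 to 4.08, 1.59 and 4.87 CPM. In shRNF113A cells it went from 1.43, 1.89 and 1.84 to 0.905, 0.649 and 0.748 CPM, so the groups were separate in opposite directions (interaction −3.68 ± 0.55, adjusted p = 0.00979). GPC6, a glypican that binds growth factors at the cell surface, fell from 34.2, 49.3 and 31.4 to 0.184, 0.433 and 0.575 CPM in shControl cells and from 20.0, 19.1 and 13.8 to 1.03, 0.866 and 1.46 CPM in shRNF113A cells (2.56 ± 0.44, adjusted p = 0.0126). SBF2, a membrane-trafficking protein, kept 21.0, 17.2 and 21.9 of 72.7, 70.3 and 66.5 CPM in shControl cells and 6.40, 7.60 and 6.55 of 56.1, 52.3 and 47.8 CPM in shRNF113A cells (−1.12 ± 0.15). ASTN2 rose by 1.55 ± 0.13 in shControl cells and by 0.45 ± 0.13 in shRNF113A cells, where it was under 2-fold (interaction −1.10 ± 0.18). The transcription factor NFIA (−1.13 ± 0.27) lost its call when any of 8 libraries was left out. Without both shControl libraries numbered 2 the counts were 8 lower and 4 higher.

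Intronic reads were taken as read pairs in the span of a gene minus those in its exons, and were scaled by the exonic counts of the library. Unlike the mRNA, they were not called changed at the 2-fold limit for most long genes under Cisplatin. Of 149 tested, 32 were called lower and 9 higher, with a background of 2.57% and 19.9% of 10941 genes. Without the 2-fold limit, 63 were lower and 24 higher at an adjusted p under 0.05. The median long gene was at −0.27 and the median of all genes at 0.50, so that relative to all genes the long genes were 0.77 lower. With intronic reads scaled among themselves the counts at 2-fold were 57 lower and 5 higher and the medians −0.76 and 0.01. The 2.57% and 19.9% belong to the exonic scaling and are no background for these counts. Under the scaling among intronic reads only the medians compare the long genes with all genes. Of the 147 long genes tested in both readouts, 118 had lower mRNA, and of these 31 had lower intronic reads, 85 had no call and 2 had higher intronic reads. Untreated shControl libraries held a mean of 27684 intronic and 165222 mRNA pairs in the long genes. The part of these fewer reads in the missing calls was not tested.

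The contrast is seen gene by gene. EXOC4, with 22.0-fold lower mRNA, had 2.15, 2.32 and 2.62 intronic CPM in untreated shControl cells and 2.32, 1.21 and 2.07 CPM under Cisplatin. In shRNF113A cells it had 2.58, 2.26 and 3.23 against 2.23, 2.09 and 2.79 CPM, and the groups overlapped in both kinds of cell (−0.26 ± 0.18). DOCK1 had 18.2, 16.2 and 17.4 against 13.9, 14.1 and 14.4 CPM in shControl cells (−0.22 ± 0.13). In other genes intronic reads fell with the mRNA. FAT3 went from 1.37, 1.36 and 1.18 to 0.164, 0.101 and 0.0889 CPM (−3.25 ± 0.32), and CPQ, a carboxypeptidase, from 2.75, 3.19 and 2.39 to 0.301, 0.277 and 0.400 CPM (−3.00 ± 0.22). AKAP6, KSR2 and EPHA6 followed with −2.32, −2.16 and −2.15. The largest rises were those of C7orf10, now named SUGCT, from 0.179, 0.491 and 0.374 to 1.29, 0.981 and 1.47 CPM (2.15 ± 0.25), and of KAZN, a junction protein, from 0.507, 0.545 and 0.633 to 1.42, 1.31 and 1.93 CPM (1.89 ± 0.21). ASTN2, RUNX1 and CREB5 followed with 1.64, 1.53 and 1.44, and of these ASTN2 also had higher mRNA.

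The ratio of intronic to exonic reads accordingly rose. A change shared by both kinds of read cancels in it, but a fall of exonic reads alone raises it. It therefore restates the mRNA and intronic changes above and is no separate support for them. It was called higher for 128 of 149 long genes and lower for 1 (background 59.1% and 1.42%), with a median of 2.46 against 0.53 for all genes. Of the 118 long genes with lower mRNA, 113 had a higher ratio. Of the 107 tested long genes that no other protein-coding gene overlaps, 94 had a higher ratio. The median rose with span, from 0.33 under 10 kb through 0.49, 0.56 and 0.80 to 2.46. GRID1 had 22.6, 17.3 and 19.8 intronic per 100 exonic pairs in untreated shControl cells and 350, 525 and 738 under Cisplatin (5.36 ± 0.28), and MAGI1 had 15.2 ± 2.74 against 364 ± 129 (SD, n = 3; change 4.91 ± 0.22). CDH4, PARD3B and TMEM117 were the others of the 5 largest rises, at 5.57, 5.27 and 4.90. Values above 100 arise where few exonic pairs remained. CPQ was the only long gene with a lower ratio, at 32.9, 16.6 and 32.2 against 17.2, 6.92 and 25.0 (−0.99 ± 0.31), where the groups overlapped. It is also among the genes whose mRNA in replicate 2 was at least 2 times that of both other replicates in each shControl group.

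**Figure D4:**
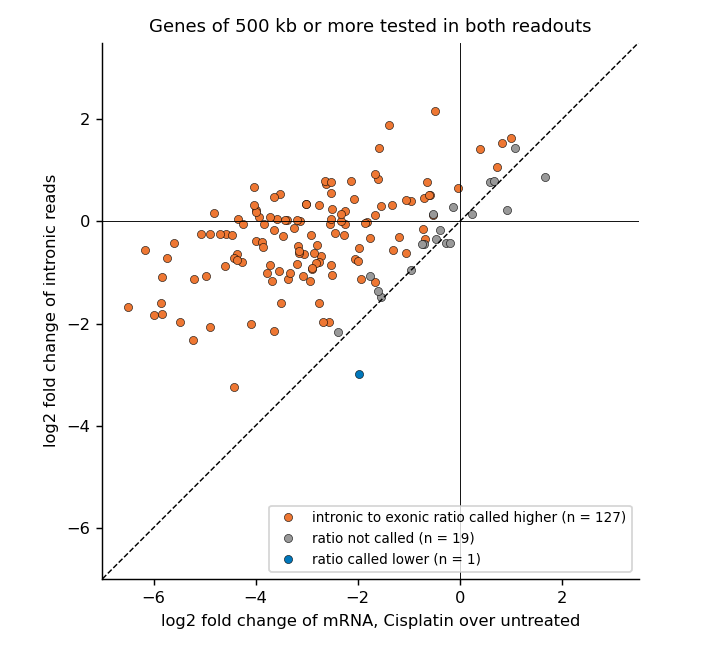
Log2 fold change under Cisplatin of intronic reads (vertical) against that of mRNA (horizontal) for the 147 long genes tested in both; the dashed line marks equal change and colours the call of the intronic to exonic ratio. Most points lie above the dashed line and to the left of 0, that is with lower mRNA and a smaller fall, or a rise, of intronic reads.

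Upon depletion the intronic reads of long genes rose less than those of other genes. Of 149, 23 were called higher and 9 lower, with a background of 24.5% and 1.23%, and the median was 0.34 against 0.72 for all genes. When intronic reads were scaled among themselves the direction turned, with 5 higher and 30 lower and medians of −0.36 and −0.00. The 24.5% and 1.23% belong to the exonic scaling and are no background for these counts. Only the position below the median of all genes holds under both scalings. The ratio was higher for 92 and lower for 1 of 149 (background 82.1% and 0.174%), with a median of 0.53 against 0.73. SORCS2 rose the most, from 68.4, 41.2 and 35.5 to 76.0, 70.8 and 63.0 intronic per 100 exonic pairs in untreated and from 31.0, 46.0 and 40.6 to 182, 183 and 244 in Cisplatin-treated cells (1.67 ± 0.30). KAZN (1.52), FAM155A (1.45), NAV2 (1.39) and MECOM (1.35) were next, and SLIT3 (−0.55 ± 0.25) was the single lower call, lost when any of 8 libraries was left out. UNC5D had the largest rise of intronic reads themselves, from 0.567, 1.77 and 0.374 to 7.57, 7.64 and 7.29 CPM in untreated cells (3.80 ± 0.39), with FAM155A, GRIK2, IMMP2L and SEMA3A at 2.91, 2.58, 1.87 and 1.67. Without both shControl libraries numbered 2 UNC5D, FAM155A and GRIK2 stood at 4.73, 4.15 and 3.62 and ATRNL1 at −1.44, and the ratio of FAM155A was no longer called (1.00, adjusted p = 0.0623). ATRNL1, KIRREL3, FAT3, PDE1C and FRMD4A fell by 2.13, 2.07, 1.88, 1.67 and 1.23 on the log2 scale, the same 5 genes being among the largest falls of mRNA with depletion.

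The position of the change along a long gene was read from the exon reads deposited with the splicing events. For each gene the inclusion reads of annotated alternative exons were summed over the 5′ and over the 3′ part of its span, divided at the middle. In shControl cells 21 long genes had enough reads, and the 5′ to 3′ ratio rose under Cisplatin in 5 of them and fell in none. The background was 1.58% higher and 1.34% lower of 5072 genes, and the medians were 0.47 and 0.00. In shRNF113A cells 8 of 22 were higher and 1 lower (background 2.74% and 2.08% of 5151 genes), with medians of 0.83 and −0.01. Inclusion reads can also change through the splicing of the exon itself, and most genes are represented by few exons.

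DOCK1 gave the clearest case. Its exon 223.1 kb from the gene start (chr10:128816974-128817099, hg19) had 358, 279 and 262 inclusion reads in the untreated and 109, 120 and 133 in the Cisplatin-treated shControl libraries, so that 40.3% were left. Its exons at 589.1, 648.5 and 651.8 kb kept 4.9%, 3.4% and 2.7%. The share of reads from the 5′ part thus rose from 29.2% ± 2.85 (SD, n = 3) to 82.0% ± 3.73 (SD, n = 3) (log2 ratio 3.45 ± 0.21, adjusted p = 2.4e-07), and in shRNF113A cells, over a set of exons that shares only the one at 589.1 kb, from 71.6% ± 0.987 to 94.7% ± 2.51. RABGAP1L, a regulator of Rab GTPases, rose from 58.1% ± 5.80 to 91.5% ± 8.71 in shControl cells, with 56.4% of the reads left at 71.8 kb, 7.5% at 234.7 kb and 3.3% at 798.6 kb. SBF2 (9.50% ± 0.675 to 21.3% ± 2.87), THSD4 (24.0% ± 1.04 to 51.0% ± 8.32) and VPS13B (35.8% ± 4.95 to 74.0% ± 9.57) were the other 3 (SD, n = 3). The 5′ part of SBF2 and of VPS13B was 1 exon each, in SBF2 at 251.3 kb with 68.2% left, and the part of that exon's own splicing was not tested. Not all long genes followed this: PRKCA had 26.8% ± 1.48 and 29.2% ± 1.54 (SD, n = 3), with similar losses of 5′ and 3′ reads. SBF2 kept 18.1% at 291.6 kb and 30.4% at 509.0 kb, so its reads did not decline steadily towards the 3′ end.

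In shRNF113A cells DOCK1, RABGAP1L, SBF2, GLIS3, AGAP1, DENND1A, WDPCP and ADK were called higher and PARD3 lower. AGAP1, which activates the hydrolysis of GTP by Arf proteins, went from 84.2% ± 2.60 to 94.7% ± 2.84 5′ reads, and WDPCP, a ciliary protein, from 37.3% ± 7.22 to 76.8% ± 14.1 (SD, n = 3). Both lost their call when any of 4 libraries was left out, and PARD3 (8.59% ± 0.815 to 5.03% ± 1.75) when any of 5 was. Among the genes named here from both kinds of cell, DOCK1, RABGAP1L and SBF2 were called in each.

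**Figure D5:**
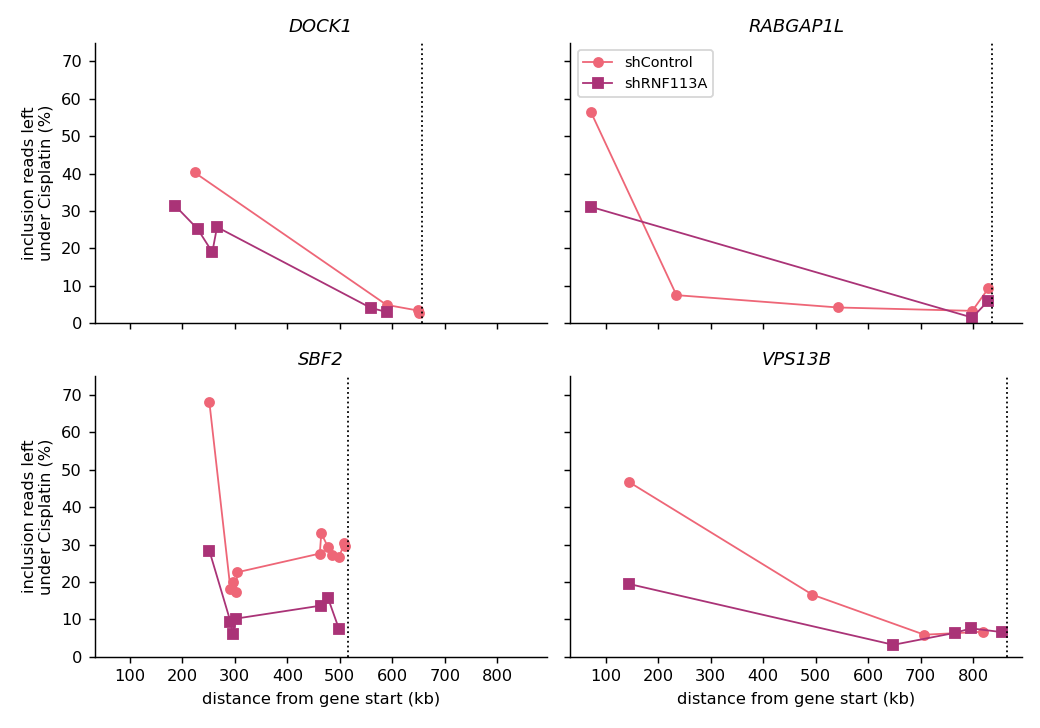
Inclusion reads left under Cisplatin, as a percentage of untreated reads and not scaled for library depth, against the distance of the exon from the gene start in kb, for DOCK1, RABGAP1L, SBF2 and VPS13B in shControl and shRNF113A cells; exons with a mean of at least 10 untreated reads are shown and the dotted line is the gene end. In DOCK1 shControl cells the value drops from 40.3% at 223.1 kb to 2.7% at 651.8 kb, whereas in SBF2 it is higher at 509.0 kb than at 291.6 kb.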

How the data were processed

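RNA of 12 A549 libraries had been sequenced as 76-nt pairs. Per the labels and the study's methods, the authors demultiplexed with bcl2fastq 2.17, removed ribosomal, transfer and mitochondrial reads, and aligned with STAR 2.5.2b to hg19. They deposited raw counts of read pairs per gene (the stranded column was used here) and HTSeq counts within exons and within whole Gencode v19 genes, and the read counts of skipped-exon events, which are deposited as text with 3 libraries to a cell in an order that is not named there. Columns with the authors' own tests were not used. Rows that name no gene were left out, 13.98% to 22.59% of the pairs.

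Counts were scaled by TMM and fitted with edgeR 4.0.16 (quasi-likelihood, R 4.3.3) over all genes and 12 libraries, with treatment, hairpin and their interaction, after edgeR's filter on low counts and with Benjamini-Hochberg adjustment over all genes. Calls needed an adjusted p under 0.05 and, for levels, at least 2-fold. Intronic counts were gene minus exon counts, kept at a mean of at least 10 intronic and 10 exonic reads. Ratios were tested as intronic against exonic, or 5′ against 3′, counts within libraries. DESeq2 1.42.0 and other alternatives are given in the closing section, and each fit was tested on simulated data. Figures used Python 3.11.15 and matplotlib 3.10.9.

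The long genes and gene lists were chosen with earlier results of these data known. Genes were named by rule: the 8 largest falls and 6 largest rises of mRNA for each factor at a mean of 1 CPM or more, the 4 largest interactions and 5′ to 3′ ratios and the 5 largest intronic and ratio changes in each direction, the 5 longest, the 5 most abundant, those at the 500 kb limit, the fragile site list and RNF113A. Others, such as ROBO1, SMYD3, EIF2B5 and UPK3B, were named after their values were seen. Replicate numbers paired the untreated and Cisplatin shControl libraries (correlations of deviations 0.635, 0.733 and 0.479) and no other groups throughout.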

Additional observations from a re-analysis of the deposited data

Results flagged for a closer look

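In 5 long genes the Cisplatin effect on mRNA differed between shControl and shRNF113A cells by the interaction term of edgeR (adjusted p under 0.05 and at least 2-fold). SORCS2 stood at −3.68 on the log2 scale, NFIA at −1.13, SBF2 at −1.12, ASTN2 at −1.10 and GPC6 at 2.56. SORCS2 was the only one of them called in opposite directions, at 2.52 in shControl and −1.16 in shRNF113A cells. Leaving out both shControl libraries numbered 2 put ASTN2 at −0.98, under the limit, and NFIA was also lost with scaling by library size.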

How the results depend on the processing

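Counts of long genes called lower and higher for Cisplatin on mRNA were 145 to 151 and 6 to 8 when 1 library was left out, 139 to 146 and 8 to 9 within shControl and 137 to 145 and 4 to 6 within shRNF113A cells. For depletion they were 37 to 44 and 12 to 21, in untreated cells 29 to 37 and 9 to 22, with the 22 arising without shControl untreated replicate 2, and in Cisplatin-treated cells 29 to 39 and 9 to 14. The interaction gave 3 to 8 and 1 to 2, with the 8 again without shControl untreated replicate 2. Intronic counts were 26 to 36 and 7 to 11 for Cisplatin and 8 to 12 and 19 to 28 for depletion, ratios 1 lower and 124 to 138 higher, and 0 to 2 lower and 75 to 92 higher. The 5′ to 3′ ratio was higher in 5 to 7 genes in shControl cells, and higher in 3 to 8 and lower in 0 to 1 in shRNF113A cells. Leaving out both shControl libraries numbered 2, chosen after seeing the data, gave 22 higher with depletion, 23 in untreated cells, interactions in 8 and 4, and 2 lower ratios with depletion.

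At least 10 counts in every library left 112 long genes, with 82 and 2 for Cisplatin, against 8.66% and 7.45% of all genes. Within shControl cells the counts were 81 and 3 (background 8.18% and 7.31%), and within shRNF113A cells 82 and 1 (9.70% and 8.92%). For depletion they were 15 and 6 (3.11% and 3.15%), 13 and 6 in untreated and 21 and 4 in treated cells, with 0 higher interactions. DESeq2 gave 8 and 5 interactions, and its adjusted p for UNC5D with depletion was NA. Unstranded counts gave 2 higher interactions (background 0.858% of all genes). With intronic scaling 57 were lower and 5 higher for Cisplatin and 30 and 5 for depletion. With no filter on intronic reads these were 49 and 26, and 44 higher for depletion. A mean of at least 50 reads gave ratios of 76 higher and 0 lower, and 4 higher 5′ to 3′ ratios in shRNF113A cells, where comparing only the outer stretches of the gene, without its middle, gave 0 lower. With the replicate block 2 interactions were higher and 0 depletion ratios lower. Within the 6 paired shControl libraries the block gave 137 lower and 7 higher against 132 and 6 without it, and it moved no other count by over 1.5 times. DMD under Cisplatin turned positive with library size scaling (0.049) and without any of 4 libraries, and ranged from −0.23 to 0.13 with 1 library left out. The cause of these differences was not tested, other than the fewer genes or samples that a stricter filter or a left-out library leaves. Counts given here without a share of all genes show only how the calls moved between settings, and are not read against other genes. Depth limits the genes under 1 CPM.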
